A study of Mus musculus with 1024 samples.

Results

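The 10 genes described here encode proteins of the contacts between endothelial cells, the cells that line blood vessels. They were taken by name from the 24422 genes of the count table, and all 10 were found. Cdh5 (VE-cadherin) and Pecam1 (CD31) were chosen with the membrane proteins Cldn5, Esam, Jam2 and F11r, the tight junction scaffold Tjp1 (ZO-1), and the catenins Ctnnb1, Ctnnd1 and Jup. They were read in single cells of the mouse aorta, across genotype, sorting gate and preparation.

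In an adherens junction, VE-cadherin molecules of neighbouring cells bind each other, and inside the cell beta-catenin or plakoglobin ties the cadherin to actin while p120-catenin holds it at the membrane. In a tight junction, claudins and the immunoglobulin-type adhesion molecules Esam, Jam2 and F11r seal the cleft and dock on scaffolds such as ZO-1. Endothelial cells hold both kinds of junction mixed along the same border, with CD31 beside them, and these contacts carry the force of blood flow in arteries. AmotL2, the protein deleted in the study, is a scaffold that associates with VE-cadherin and actin filaments.

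Every well came from the aorta of mice on a C57BL/6 background at 3 months of age, and all wells carry one strain label, Amotl2flow/flow / Cdh5-RREert /ROSA26-EYFP. The genotype labels divide them into WT and KO. Per the study's methods a floxed amotl2 allele was recombined after tamoxifen by a Cre recombinase whose driver is the Cdh5 promoter, so the deletion was limited to the endothelial lineage, and EYFP reports the recombination. The labels do not say whether WT mice carried an active Cre or received tamoxifen. Cells came from several mice per genotype over 2 independent experiments, as the study describes them, and no label ties a well to a mouse. Cells were depleted of Cd45+ cells and sorted by flow cytometry in 2 preparations, as Cd31+Cd45- cells, labelled Endothelial, and Cd31-Cd45- cells, labelled DoubleNegative. The gate thus used the protein product of Pecam1.

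Of 1024 wells, 784 held at least 20000 gene counts and 500 genes, with 676 of 896 Endothelial and 108 of 128 DoubleNegative wells among them. Their counts were summed over genotype, gate and preparation into 8 sums of 12 to 302 wells. A sum is the replicate throughout, with 2 per group, and levels are given as CPM, a gene's counts over all gene counts of a sum, scaled to 1000000. Median depth was 46891 to 252839 gene counts per well. In preparation 1 each genotype had its own plate, and the part of plate and that of genotype cannot be told apart, while in preparation 2 both shared 1 plate. In WT Endothelial preparation 2 a single well gave 17.7% of all counts.

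The gates were checked with marker lists. The summed level of 10 endothelial markers was 6627 to 8890 CPM in the Endothelial sums and 37.8 to 261 CPM in the DoubleNegative sums. Smooth muscle markers reached 737 to 1670 CPM in Endothelial and 21089 to 53541 CPM in DoubleNegative sums. Fibroblast markers reached 263 to 563 and 4121 to 31481 CPM. The 7 immune markers stayed at or under 4.66 CPM and the 4 erythroid markers at 0 in every sum, and the 3 adipocyte markers were at 0 except for 166 CPM in WT Endothelial preparation 1. The part of these other cells in the results was not tested.

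Clustering of the wells set some apart from their labels. One DoubleNegative well of WT preparation 2, with 38635 counts, fell in a cluster with endothelial markers and held a count of 7 of the 10 genes. It gave 38 of the 38 Cdh5 counts, 486 of the 486 Cldn5 counts and 480 of the 497 Pecam1 counts of its sum. Conversely, 16 Endothelial wells lay in a smooth muscle-like or a fibroblast-like cluster, and all 16 still held Pecam1 counts. For the 10 genes, results that rest mainly on these wells are given with and without them or their sum.

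The genotype label was checked on Amotl2 and EYFP. Amotl2 stood at 59.9 and 94.0 CPM in the WT Endothelial sums and at 51.9 and 45.7 CPM in the KO Endothelial sums of preparations 1 and 2. The KO sums were the lower ones, but the log2 difference of -0.66 ± 0.32 (SE) did not pass edgeR's quasi-likelihood test, adjusted by Benjamini-Hochberg (adjusted p = 1.00). Counts are per gene, so reads outside the floxed part still count. EYFP was at 2.38 and 0.353 CPM in WT Endothelial, at 113 and 85.5 CPM in KO Endothelial and at 0 in all 4 DoubleNegative sums. Its log2 difference between genotypes in Endothelial sums was 6.00 ± 0.64, with an adjusted p of 0.0596 in the same test. With preparation as a replicate block it passed (6.29, adjusted p = 0.000611), as it did in DESeq2 (adjusted p = 6.55e-27), while among wells of at least 100000 counts it did not (adjusted p = 0.136).

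Promoter letters are shown for members at both ends of the gate comparison below: Cldn5, found almost only in Endothelial wells, and Ctnnb1, Tjp1 and Jup, found in both gates. Each is the 250 bases before an annotated RefSeq start (build GRCm38.p6), 5′ to 3′ on the gene's strand, and capitals mark 2 sets of letters searched on both strands, GGAA or TTCC (the core bound by ETS factors) and GGGCGG or CCGCCC (the GC box).

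Cldn5, chr16:18776597-18776846, plus strand: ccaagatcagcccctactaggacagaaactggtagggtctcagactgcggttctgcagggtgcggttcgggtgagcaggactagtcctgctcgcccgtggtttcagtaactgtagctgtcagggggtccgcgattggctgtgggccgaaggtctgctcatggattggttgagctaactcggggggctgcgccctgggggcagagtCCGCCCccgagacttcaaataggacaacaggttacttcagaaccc
Ctnnb1, chr9:120933150-120933399, plus strand: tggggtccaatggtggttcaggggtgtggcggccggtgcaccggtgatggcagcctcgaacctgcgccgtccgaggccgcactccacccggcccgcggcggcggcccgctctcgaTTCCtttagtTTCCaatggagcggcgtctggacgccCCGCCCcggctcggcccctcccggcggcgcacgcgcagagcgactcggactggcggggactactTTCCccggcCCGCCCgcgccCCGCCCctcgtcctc
Tjp1, chr7:65371245-65371494, minus strand: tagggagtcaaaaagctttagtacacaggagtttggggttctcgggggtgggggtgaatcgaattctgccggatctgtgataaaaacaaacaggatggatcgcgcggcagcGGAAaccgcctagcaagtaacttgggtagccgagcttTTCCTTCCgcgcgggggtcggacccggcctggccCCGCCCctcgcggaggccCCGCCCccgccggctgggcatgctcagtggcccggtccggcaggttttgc
Jup, chr11:100397791-100398040, minus strand: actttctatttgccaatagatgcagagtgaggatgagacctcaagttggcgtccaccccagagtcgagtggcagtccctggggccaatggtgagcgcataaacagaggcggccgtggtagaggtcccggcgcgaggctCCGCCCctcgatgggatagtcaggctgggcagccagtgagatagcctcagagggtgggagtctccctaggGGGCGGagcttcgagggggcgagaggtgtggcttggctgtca

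The GC box letters stood once in the Cldn5 window, 3 times in Ctnnb1 and 2 times each in Tjp1 and Jup, against a match in 32.7% of 32851 promoter windows of the same length. GGAA or TTCC had 3 matches each in Ctnnb1 and Tjp1 and 0 in Cldn5 and Jup, where 93.4% of windows held at least 1. No matches of the 2 sets overlapped. A match is a description of letters and not a binding site.

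Cdh5, the gene of VE-cadherin (ENSMUSG00000031871, GRCm38, plus strand, chr8:104101625-104144511), stood at 197 and 213 CPM in the WT Endothelial sums and at 292 and 213 CPM in the KO Endothelial sums of preparations 1 and 2. In the DoubleNegative sums it was at 0.452 and 38.5 CPM in WT and at 0.530 and 0 CPM in KO. The lowest Endothelial sum lay above the highest DoubleNegative sum, and the only DoubleNegative sum over 1 CPM was the one with the endothelial well. Cdh5 was higher in the Endothelial gate by 6.23 ± 1.13 on the log2 scale (adjusted p = 0.00598). In this comparison of 4 with 4 sums, 19% of 12729 genes tested passed edgeR's quasi-likelihood test, adjusted by Benjamini-Hochberg at 0.05, 9.79% being higher in Endothelial, and 8 of the 10 junction genes did so, all 8 higher. Pecam1, whose product the gate used, is among the 8. The 10 were chosen as genes of endothelial contacts, with earlier results of these data known. Their share above that of all genes thus depends on that choice. Without the WT DoubleNegative preparation 2 sum the Cdh5 difference was 8.85.

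Pecam1 (minus strand, chr11:106654217-106750628), whose product CD31 binds CD31 on the next cell and was the sorting marker, had the highest level of the 10. It was at 8591 and 8280 CPM in WT and 7691 and 7145 CPM in KO Endothelial sums. The DoubleNegative sums held 19.6 and 503 CPM in WT and 5.09 and 5.4 CPM in KO, so the groups did not overlap. The log2 difference of 7.64 ± 0.96 (adjusted p = 0.00100) was set by the gate. With wells kept by cluster, which leaves out the endothelial well of WT DoubleNegative preparation 2, the difference was 9.53.

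Cldn5 (plus strand, chr16:18776847-18778262), the claudin typical of endothelium, stood at 974 and 1224 CPM in WT and 981 and 1107 CPM in KO Endothelial sums. It was at 0 in 3 DoubleNegative sums and at 492 CPM in that of WT preparation 2, all from the 1 endothelial well. The fitted log2 difference was 9.78 ± 2.52 (adjusted p = 0.0315), a size that depends on that well and on how sums at 0 are fitted. In the other 107 DoubleNegative wells there was no Cldn5 count among 17945641. Against a floor of 3 counts over those wells, the mean of the Endothelial sums was at least 6411-fold higher.

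Esam, Jam2 and F11r (JAM-A) are adhesion molecules with immunoglobulin domains. Esam (plus strand, chr9:37528078-37538319) stood at 1172 and 1002 CPM in WT and 1027 and 977 CPM in KO Endothelial sums. In DoubleNegative sums it was at 10.7 and 92.1 CPM in WT and 41.9 and 61.5 CPM in KO, and the log2 difference between gates was 4.26 ± 0.62 (adjusted p = 0.00196). Every DoubleNegative sum thus held some Esam, far below each Endothelial sum. Jam2 (plus strand, chr16:84774123-84825928) stood at 402 and 578 CPM in WT and 528 and 514 CPM in KO Endothelial sums. Its DoubleNegative sums were at 47.9 and 22.3 CPM in WT and 21.7 and 2.16 CPM in KO, a log2 difference of 4.42 ± 0.56 (adjusted p = 0.00106). F11r (plus strand, chr1:171437535-171464603) stood at 631 and 491 CPM in WT and 615 and 538 CPM in KO Endothelial sums. Its DoubleNegative sums were at 8.74 and 1.01 CPM in WT and 15.9 and 4.32 CPM in KO, a log2 difference of 6.03 ± 0.58 (adjusted p = 0.000324). None of these 3 genes overlapped between gates, and the difference of each passed the test in all 16 alternative analyses.

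Tjp1 (minus strand, chr7:65296165-65527781), the scaffold under claudins and JAMs, was less divided between the gates. It stood at 94.5 and 138 CPM in WT and 117 and 95.4 CPM in KO Endothelial sums, and at 35.4 and 21.3 CPM in WT and 55.7 and 74.5 CPM in KO DoubleNegative sums. The groups did not overlap, with a log2 difference of 1.24 ± 0.31 (adjusted p = 0.0227).

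The catenins were measured in all 8 sums. Ctnnb1 (beta-catenin, plus strand, chr9:120929216-120960507), which binds the cadherin tail and also acts in Wnt signalling, varied least. It stood at 434 and 468 CPM in WT and 453 and 440.0 CPM in KO Endothelial sums, and at 273 and 249 CPM in WT and 307 and 250.4 CPM in KO DoubleNegative sums. The Endothelial values were all above the DoubleNegative ones, but the log2 difference of 0.62 (95% interval 0.11 to 1.13) did not pass the test (adjusted p = 0.0921). Ctnnb1 overlaps Ulk4 and Cdh5 overlaps Gm29682, each on the other strand, and Ctnnd1 overlaps Gm28635 on its own strand. Tjp1 (Gm44792, Gm44794, Gm44795), Jam2 (Gm25908) and Ctnnb1 (Mir7090, 4930593C16Rik) overlap further annotated genes. Strand use in counting was not given in the sources used here, so reads of such pairs may not be told apart.

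Ctnnd1 (p120-catenin, minus strand, chr2:84600071-84650765), which keeps cadherins at the surface, stood at 123 and 179 CPM in WT and 185 and 142 CPM in KO Endothelial sums. In DoubleNegative sums it was at 46.7 and 63.8 CPM in WT and 69.6 and 100.4 CPM in KO, with no overlap and a log2 difference of 1.08 ± 0.29 (adjusted p = 0.0298). Jup (plakoglobin, minus strand, chr11:100368958-100397763), shared by adherens junctions and desmosomes, stood at 123 and 104 CPM in WT and 154 and 82.5 CPM in KO Endothelial sums. It was at 63.2 and 67.8 CPM in WT and 89.7 and 28.1 CPM in KO DoubleNegative sums, and here the gates overlapped. The log2 difference was 0.77 (95% interval -0.09 to 1.64), which did not pass the test (adjusted p = 0.210). The sums of the 2 gates did not overlap for the other 9 genes, as for 26.2% of all genes tested.

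Of the 8 calls, 3 were less firm than the rest. Tjp1 and Ctnnd1 each passed in 10 of 16 alternatives, and their adjusted p ranged from 0.00309 to 0.103 and from 0.00919 to 0.136. Cldn5 passed in 12 of 16, with adjusted p up to 0.127. Without the WT Endothelial preparation 2 sum, 5 of the 10 genes passed, and Cldn5 (9.75), Tjp1 (1.12) and Ctnnd1 (0.96) did not. With each combination of genotype and preparation as a replicate block 7 of the 10 passed, Tjp1 being lost (log2 difference 1.24, adjusted p = 0.0750). Pecam1, set by the gate, is in these counts.

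**Figure D1:**
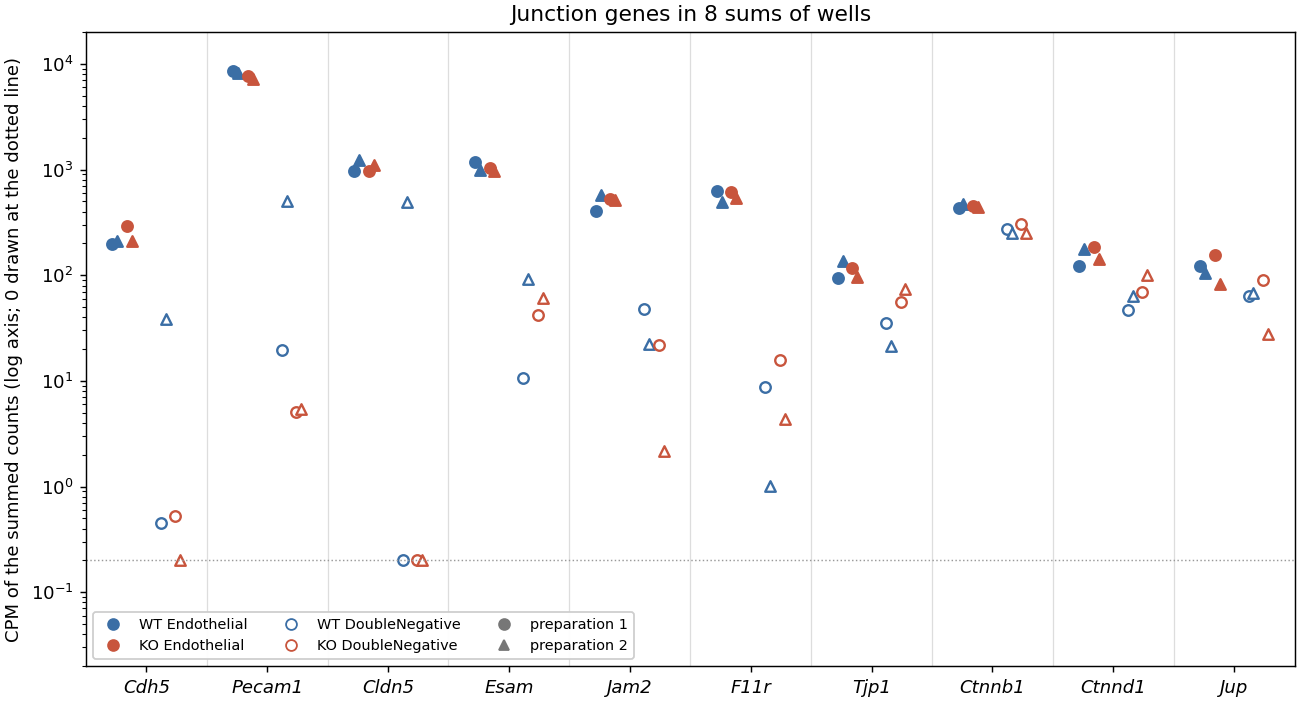
CPM of each junction gene on a log axis in the 8 sums of wells, 1 point per sum. Filled points are Endothelial, open points DoubleNegative, blue WT, red KO, circles preparation 1 and triangles preparation 2, and a value of 0 is drawn at the dotted line. Cdh5, Pecam1 and Cldn5 fall to near 0 in DoubleNegative except in WT preparation 2 (38.5, 503 and 492 CPM), while Ctnnb1 stays at 249 CPM or more in all 8 sums.

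Divided by the length of the gene's exons, the levels in the Endothelial sums ordered the 10 genes, as mean CPM per kilobase over 4 sums. Pecam1 led with 1273 ± 103 (SD), followed by Cldn5 at 757 ± 83.9, Esam at 364 ± 30.4 and F11r at 214 ± 24.8, each without overlap with its neighbours. Ctnnb1 (86.5 ± 2.93) and Jam2 (83.6 ± 12.3) overlapped, and so did Jam2 and Cdh5 (54.5 ± 10.2). Ctnnd1 (21.5 ± 4.0), Jup (18 ± 4.68) and Tjp1 (14.3 ± 2.66) closed the order and could not be ranked among themselves. Of the cadherin's partners, Ctnnb1 was at 3.66 to 6.61 times the per-kilobase level of Jup in each Endothelial sum. By the longest transcript in place of all exons, only Ctnnd1 and Jup changed places.

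The same counts were also read as shares of single wells. Over all 676 Endothelial and 108 DoubleNegative wells, Cdh5 had a count in 94.5% and 2.78%, and Cldn5 in 81.5% and 0.926%. The 2 sets below leave out wells whose cluster went against their label. As the clusters were built from all genes, the shares in these sets are descriptions. Among the 660 Endothelial wells in clusters with endothelial markers, Cdh5 had a count in 95.3% of wells (95% exact Clopper-Pearson interval 93.4 to 96.8), Pecam1 in 99.8%, Esam in 99.1%, F11r in 96.2% and Jam2 in 91.1%. Cldn5 was found in fewer, 82.0% (78.8 to 84.8), although its level per kilobase was the second highest. Among the 107 DoubleNegative wells outside those clusters, Cldn5 was found in 0 wells (interval 0 to 3.39, and 2.80% by the simpler limit of 3 wells), and Cdh5 in 2 (1.87%, interval 0.227 to 6.59). Pecam1 was found in 14% of them, F11r in 13.1%, Jam2 in 19.6% and Esam in 28.0%. Ctnnb1 was found in 86.9%, Jup in 55.1%, Ctnnd1 in 49.5% and Tjp1 in 35.5%. Median depths were 159625 counts in the first set and 121099 in the second, and after each well was thinned to 20000 counts the shares were 86.4% and 0.935% for Cdh5 and 98.5% and 21.5% for Esam. The intervals cover counting error over wells only.

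At least 8 of the 10 genes had a count in 81.3% and 98.0% of wells in the WT Endothelial sums and in 85.4% and 95.5% in the KO Endothelial sums of preparations 1 and 2. No DoubleNegative well held 8, and the median there was 2.5 to 3.0 genes. In the 16 Endothelial wells of the smooth muscle-like and fibroblast-like clusters, Pecam1 was found in 16, Esam in 15, and Cdh5 and Cldn5 in 10 each, at 2323, 418, 53.3 and 239.6 CPM.

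**Figure D2:**
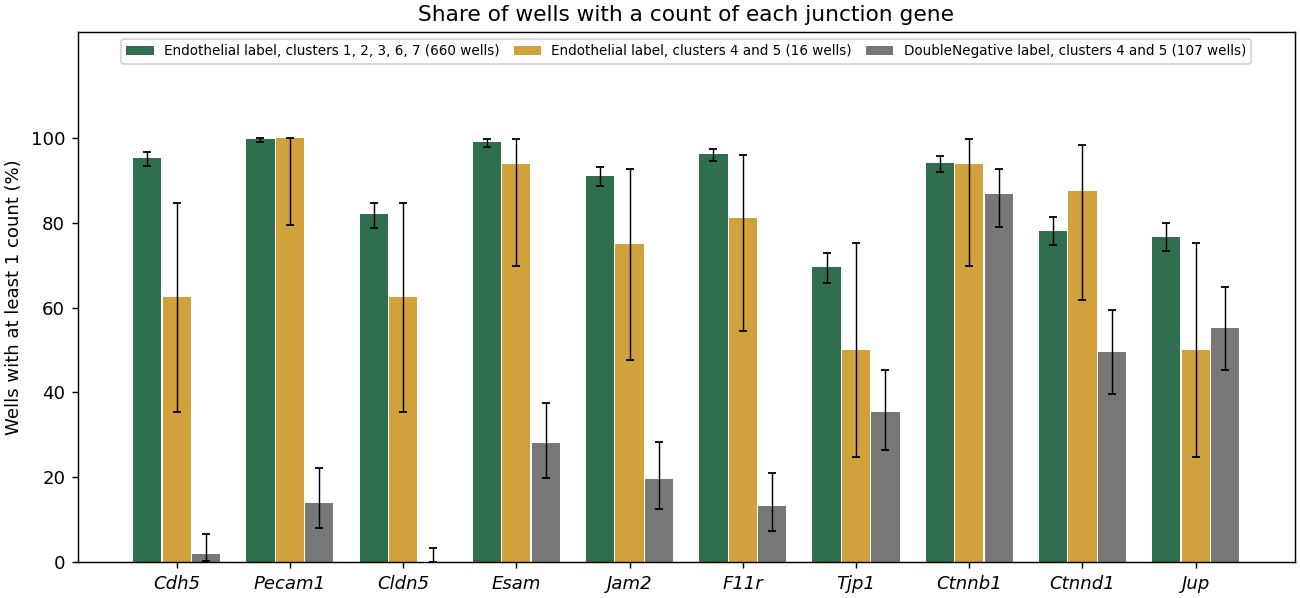
Percent of wells with at least 1 count of each gene, as bars from 0 with exact 95% intervals over wells. Green bars are the 660 Endothelial wells of the clusters with endothelial markers, yellow the 16 Endothelial wells of the other clusters, and grey the 107 DoubleNegative wells of those other clusters. Grey bars are at 0 for Cldn5 and 1.87% for Cdh5 and rise to 86.9% for Ctnnb1.

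The DoubleNegative wells were of more than one kind, and the adhesion genes divided between them. In 70 smooth muscle-like wells, named by Myh11, Cnn1 and Acta2 among their leading genes, Esam was at 52.0 CPM with a count in 41.4% of wells, against 0.154 CPM and 2.7% in 37 fibroblast-like wells led by genes such as Dcn and Lum. Jam2 was the other way round, at 2.10 CPM and 5.71% in smooth muscle-like and 78.6 CPM and 45.9% in fibroblast-like wells. In preparation 1, the only one with more than 1 fibroblast-like well per genotype, Esam was at 28.3 against 0.241 CPM in WT and 54.5 against 0 CPM in KO, and Jam2 at 0 against 76.5 CPM in WT and 2.34 against 86.1 CPM in KO. Both orders held in both genotypes. Tjp1 was at 66.0 CPM in smooth muscle-like and 14.8 CPM in fibroblast-like wells, F11r at 17.1 and 2.62 CPM. Of the 196 F11r counts in smooth muscle-like wells, 150 came from KO preparation 1, where 1 well held 84.7% of them. Ctnnb1 (327 and 219 CPM) and Ctnnd1 (64.2 and 59.7 CPM) were closer. The clusters were built from all genes, so no test was made between them.

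Between genotypes, none of the 10 genes passed the test in the Endothelial sums, the comparison the study was built on. The background was 0% of 12702 genes by edgeR's quasi-likelihood test, with 468 genes at an unadjusted p under 0.05 and 37 called by DESeq2. None of the 10 was at an unadjusted p under 0.05, and none was called by DESeq2. Of the 10, 5 had a higher and 5 a lower fitted level in KO, with a median log2 difference of 0.02 beside 0.00 over all genes tested.

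Cdh5 had the largest fitted difference, 0.29 ± 0.25 on the log2 scale (95% interval -0.28 to 0.87), with 0.57 in preparation 1 and -0.0025 in preparation 2. Pecam1 was at -0.18 (interval -0.72 to 0.37), with -0.16 and -0.21 in the 2 preparations, and Esam at -0.11 (-0.66 to 0.45), with -0.19 and -0.036. Pecam1 and Esam were the genes with the same sign in both preparations. For Tjp1 the preparations gave 0.31 and -0.54, for Ctnnd1 0.58 and -0.33, for Jup 0.33 and -0.34, and for Jam2 0.40 and -0.17. By summed counts preparation 1, with the genotypes on separate plates, thus put these 4 genes higher in KO and preparation 2 put them lower. Medians per well in preparation 2 were higher in KO for Jam2 (339.8 CPM in WT, 426 CPM in KO) and Ctnnd1 (113 and 119 CPM). They were lower for Tjp1 (104 and 85.8 CPM) and Jup (75.9 and 53.9 CPM). In preparation 1 the Tjp1 median was lower in KO (42.3 and 28.6 CPM). In WT preparation 2, 1 well held 25.6% of the Jam2 counts. Ctnnb1 differed least, at -0.01 (interval -0.56 to 0.55). The intervals of all 10 lay between -0.78 and 0.87, each gene having its own bounds.

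**Figure D3:**
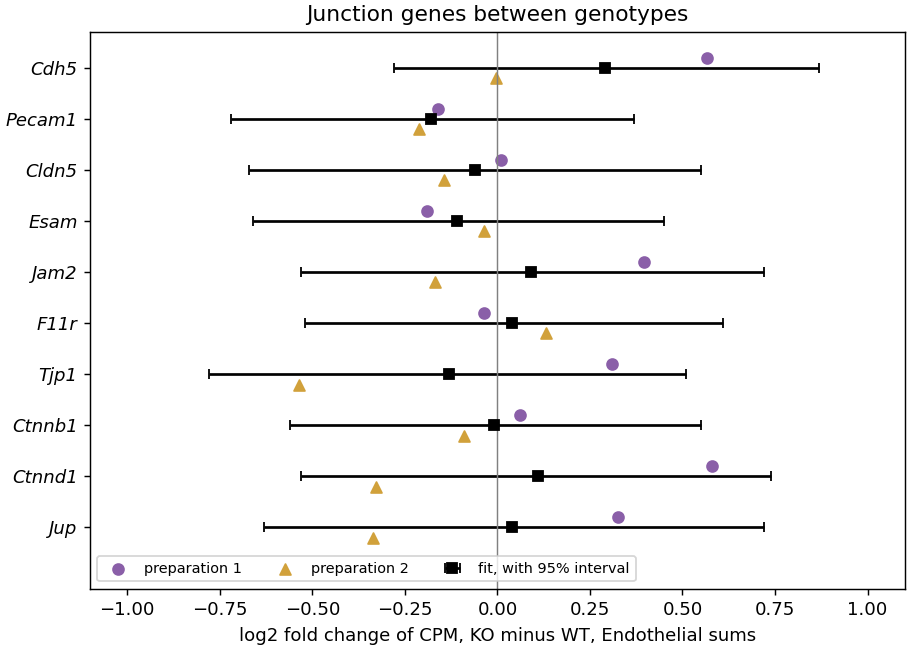
Log2 fold change of KO against WT for each gene in the Endothelial sums. Black squares are the fitted values with 95% intervals, purple circles the difference within preparation 1 and yellow triangles that within preparation 2. All 10 intervals cross 0, and for Tjp1, Ctnnd1, Jup and Jam2 the 2 preparations lie on opposite sides of 0.

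EYFP divides the KO Endothelial wells by a sign of recombination. In the clusters with endothelial markers, 227 wells of preparation 1 and 75 of preparation 2 held an EYFP count, and 67 and 12 did not. Cdh5 was at 289 CPM in wells with and 343 CPM in wells without EYFP in preparation 1, and at 217 and 193 CPM in preparation 2. Pecam1 was at 7900 and 7625 CPM, then at 7195 and 7011 CPM, and Cldn5 at 972 and 1137 CPM, then at 1096 and 1276 CPM. Cldn5 was thus lower and Pecam1 higher with EYFP in both preparations, while Cdh5 changed order. Esam (1056 and 996 CPM, then 986 and 935 CPM) was also higher with EYFP in both. So was Jam2 (548 and 500.3 CPM, then 519 and 480.4 CPM). Ctnnb1 (452 and 493 CPM, then 437 and 526 CPM) was lower in both. F11r, Tjp1, Ctnnd1 and Jup changed order, as Cdh5 did. These orders are of summed counts. By the median per well Ctnnb1 was higher with EYFP, at 416 and 276 CPM, then at 393 and 392 CPM. The medians of Esam changed order, at 901 and 1006 CPM, then at 1048 and 964 CPM. Those of Cldn5, Pecam1 and Jam2 kept the orders of their sums. Keeping the same order was thus not particular to Cldn5 and Pecam1. Wells without EYFP were shallower, with a median of 218102 against 275391 counts in preparation 1 and 36954 against 66497 in preparation 2, and the wells of 1 sum share a library preparation, so no test was made.

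In the DoubleNegative sums none of the 10 genes passed the test between genotypes, against a background of 0% of 12729 genes. Of the 10, 4 were at an unadjusted p under 0.05 (1130 of all genes), and DESeq2 called 3 of the 10 (189 of all genes). Cdh5 (log2 difference -5.21), Pecam1 (-5.62) and Cldn5 were lower in KO, and their WT level came almost wholly from the 1 endothelial well. With wells kept by cluster, which leaves that well out, the differences were 0.27 for Cdh5 and -1.85 for Pecam1, neither past the test, and both genotypes had no Cldn5 count. Without the WT DoubleNegative preparation 1 sum, which leaves the sum with that well as the only WT one, all 3 passed (Cdh5 -6.35, adjusted p = 0.00301). The other one was Tjp1, at 1.21 ± 0.44 (adjusted p = 0.523). The difference between gates in the genotype effect was passed by 0 of the 10 and 0% of all genes, with 3 of the 10 and 657 of all genes at an unadjusted p under 0.05 and 2 of the 10 and 46 of all genes called by DESeq2.

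Between preparations, none of the 10 passed in the Endothelial sums, where 0.0315% of genes did (4 genes, all lower in preparation 2), and none was at an unadjusted p under 0.05. Jup had the lowest value, -0.45 ± 0.26 for preparation 2 against 1 (adjusted p = 0.743), and Cldn5 the highest, 0.37 ± 0.21 (adjusted p = 0.736).

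The spread among single Endothelial wells differed between genes. Pecam1 was the most even, with a coefficient of variation (SD over mean of the CPM per well) of 0.337 and 0.277 in the WT sums and 0.377 and 0.283 in the KO sums. These wells were gated on its product, and it had the most counts of the 10 genes, 343201 against 46809 for Esam in WT preparation 1. The part of gate and counting in its evenness was not tested. Esam followed at 0.521, 0.451, 0.576 and 0.346. Cldn5, with a count total close to that of Esam, varied at 1.03, 1.02, 1.15 and 1.01. Its quartiles in WT preparation 1 were 118, 853 and 1535 CPM, where those of Esam were 794, 1112 and 1480 CPM. The lower quartile of Cldn5 thus lay far below its median, and that of Esam much nearer.

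Cdh5 had a coefficient of variation of 0.603 to 0.904 and Tjp1 of 0.985 to 1.54. Low genes vary more from counting alone. After each well was thinned to 20000 counts, Cldn5 was at 1.02 to 1.13 and Esam at 0.376 to 0.618. The libraries had no molecular identifiers, so thinning evens reads and not molecules, and the part of counting in the spread was not tested. All 10 genes varied less in preparation 2 than in preparation 1 in both genotypes, as did 92.1% of 2289 genes found in at least 50% of wells of each Endothelial sum.

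**Figure D4:**
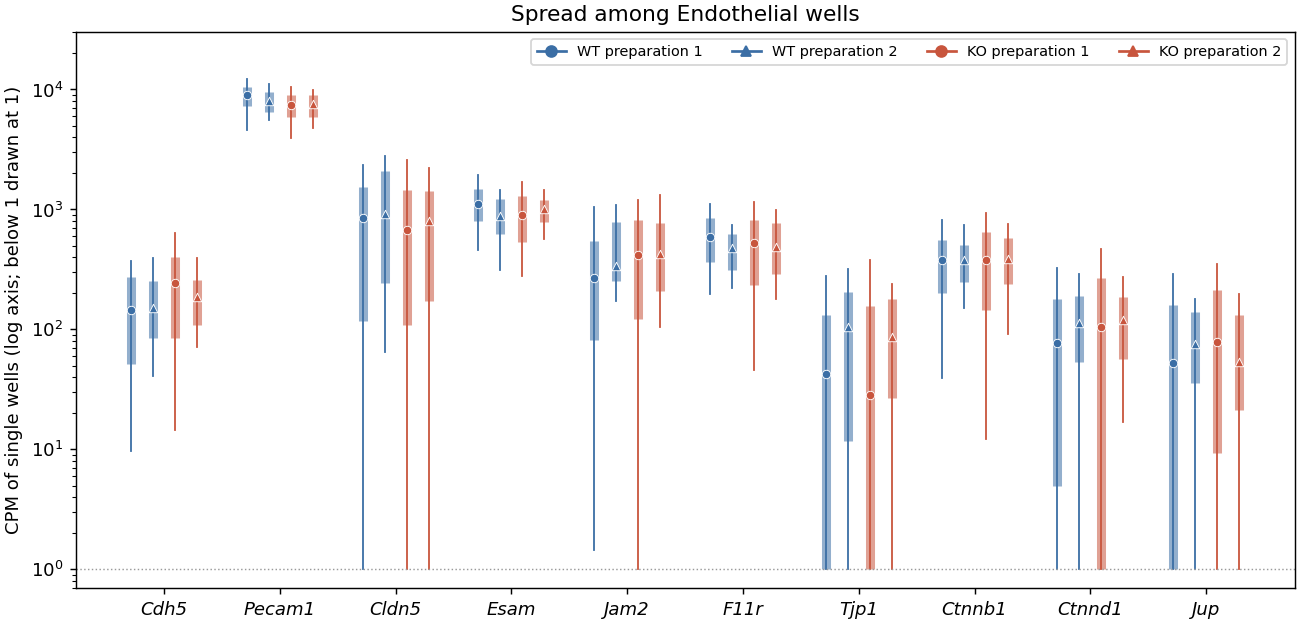
CPM per single Endothelial well on a log axis, for each gene and each of the 4 sums. Points are medians, thick bars run from the lower to the upper quartile and thin lines from the 10th to the 90th percentile, with values under 1 drawn at 1. Pecam1 and Esam have short bars, while the bars of Cldn5 reach from 118 to 1535 CPM in WT preparation 1.

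Of 7 clusters of wells, 5 had 8 or 9 of the 10 endothelial markers in at least 50% of their wells. Their leading genes were other genes, and in cluster 1 included the adipocyte marker Adipoq, so they are named by number. Adipoq had counts only in the WT Endothelial sum of preparation 1, which gave 22 of the 249 wells of cluster 1, so it does not mark that cluster as a whole. Cluster 3, led by the antigen presentation genes Cd74 and H2-Aa, held 155 of its 156 wells from the WT sum of preparation 1, and may be that library rather than a cell type. Clusters 1 and 2 (249 and 200 wells) held cells of all 4 Endothelial sums.

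Jam2 and Cldn5 ran against each other between clusters 1 and 2. Jam2 was at 399 CPM in cluster 1 and 163 CPM in cluster 2 in WT preparation 1, at 707 and 330.3 CPM in WT preparation 2, at 626 and 343 CPM in KO preparation 1 and at 668 and 364 CPM in KO preparation 2. Cldn5 was at 597 and 974, 1100 and 1311, 648 and 1273, and 659 and 1470 CPM in the same order of clusters and sums. Jam2 was thus higher in cluster 1 and Cldn5 higher in cluster 2 in each of the 4 sums. Pecam1, Esam and F11r did not keep 1 order over the 4 sums. Both genes took part in the clustering, so these are descriptions.

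Cluster 6 (33 wells), led by Lrg1, Cd36 and Ackr1, and cluster 7 (23 wells), led by Slc6a6, Hapln1 and Dkk2, had the lowest and the highest Cldn5 level of the 5 clusters when all their wells were summed. Cldn5 had a count in 36.4% of wells of cluster 6, with a median of 0 CPM, and in 100% of wells of cluster 7, with a median of 3233 CPM. Esam was high in both, at 1510 and 1657 CPM, and so was Jam2, at 1015 and 839 CPM. Pecam1 was at 4107 CPM in cluster 6 and 5628 CPM in cluster 7, below the 7861 to 9750 CPM of clusters 1 to 3. Cdh5 ranged only from 201 to 332 CPM over the 5 clusters. Cluster 6 held 19 wells of WT preparation 1 and 11 of KO preparation 1, where summed Cldn5 was 167 and 1214 CPM while its medians per well were 0 and 318 CPM. The low end thus held in WT preparation 1 but not in KO preparation 1, where cluster 1 was lower, at 648 CPM with a median of 303 CPM.

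**Figure D5:**
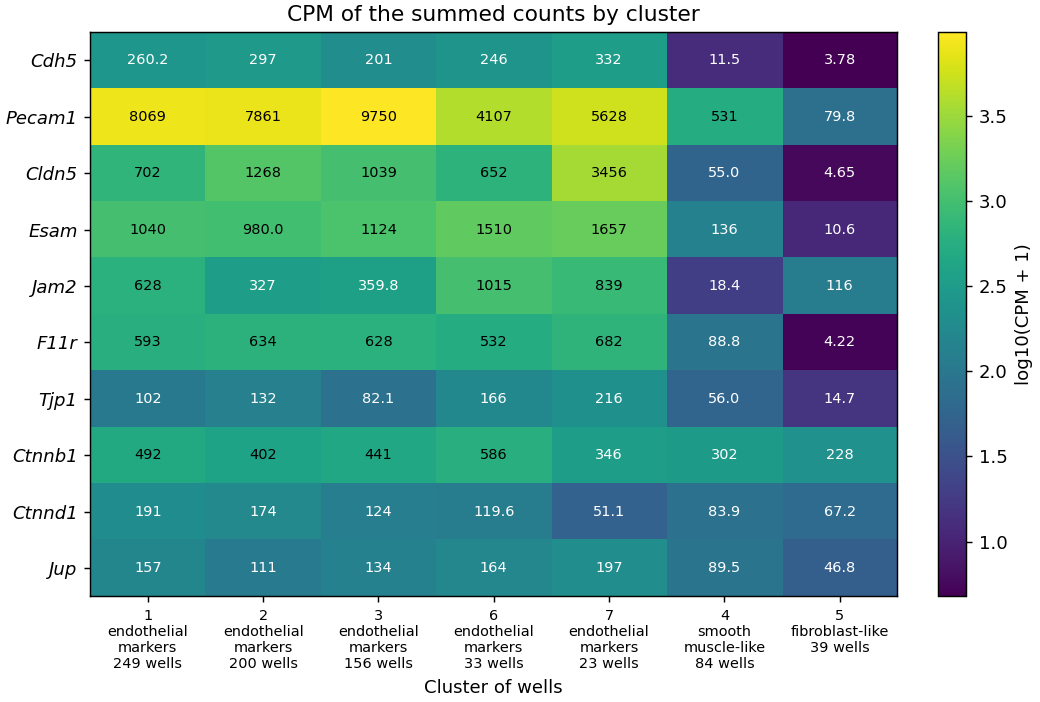
CPM of the summed counts of each gene (rows) in 7 clusters of wells (columns), with the value in each cell and the colour giving log10(CPM + 1). Clusters 1, 2, 3, 6 and 7 hold endothelial markers. Cldn5 runs from 652 CPM in cluster 6 to 3456 CPM in cluster 7, and Cdh5 from 201 to 332 CPM over the same 5 clusters. Columns 4 and 5 include the 16 wells with an Endothelial label.

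Over wells of 1 sum, the 10 genes varied largely apart from each other. Of 45 pairs, the mean Spearman rho of log2(CPM + 1) over the 4 Endothelial sums was between -0.10 and 0.17 for 44. The other pair was Esam and Jam2, at 0.29 (0.29, 0.42, 0.16 and 0.29 in the 4 sums). Cdh5 had 0.17 with Tjp1, 0.11 with Ctnnb1 and 0.02 with its partner Ctnnd1. Counts in single wells are sparse and the wells of a sum share a plate and a library preparation, so weak values are no finding.

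The genes with the highest rho lay outside the 10. They are the top of many compared, so a value above those of the few members is no finding. Among 2289 genes compared, Pecam1 was most like Gja5, an arterial gap junction gene, with a mean rho of 0.47 (0.34 to 0.59 over the 4 sums), then Cytl1, Ptprj, Ramp2 and Klk10 at 0.44 to 0.40. Cldn5 was most like Stmn2, at 0.53 (0.47 to 0.63), then Ly6c1, Ly6a, Podxl and Ly6e at 0.43 to 0.40. After thinning the first values were 0.46 and 0.49. For Cdh5 the highest were 0.21, for Fam65a, Itgb4 and Sh3glb1, followed by S1pr1 and Ly6c1 at 0.20. They were weak and uneven, Fam65a running from -0.03 to 0.47 over the 4 sums, fell to 0.13 to 0.19 after thinning, and lay close to the 0.17 of Tjp1, at rank 11.

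The wider set of junction genes, 76 names of which 75 were in the table, was divided between the gates as well. Of 61 tested, 22 were higher and 11 lower in Endothelial, 54.1% called against 19% of all genes, 9.79% of all genes being higher. Their counts by role are to be read against these shares. The set was chosen by name with earlier results of these data known and includes genes picked as regulators of endothelial junctions. Its share above that of all genes thus depends on how the set was drawn. The set had a median log2 difference of 0.61 beside 0.15 over all genes tested. Among 9 tight junction membrane proteins tested, 5 were higher and 2 lower. Ocln, the tight junction protein occludin, was at 45.4 to 104 CPM in Endothelial sums and 0 to 1.01 CPM in DoubleNegative sums (adjusted p = 0.000516). Lsr, which places tricellulin at tricellular corners, was at 123 to 164 and 0 to 7.08 CPM (adjusted p = 0.00277). Marveld2, tricellulin itself, was at 2.56 to 5.78 CPM and 0 in all 4 DoubleNegative sums (adjusted p = 0.0209). Its mean over the Endothelial sums, 4.28 CPM, was at least 25.7-fold higher against a floor of 3 counts over the group. Jam3 ran against Jam2 and F11r: it was at 14.5 to 18.1 CPM in Endothelial and 104 to 219 CPM in DoubleNegative sums, lower by a log2 difference of -3.32 ± 0.33 (adjusted p = 0.000372).

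Of 17 regulators of endothelial junctions, 11 were higher and 1 lower in Endothelial, 70.6% against the 19% of all genes. Ptprb (VE-PTP), a phosphatase that binds VE-cadherin, was at 2705 to 3163 CPM in Endothelial and 0 to 87.0 CPM in DoubleNegative sums (adjusted p = 0.000288). Kdr (VEGFR2) was at 1.68 to 21.9 CPM and Robo4 at 5.38 to 23.2 CPM in Endothelial, both with no count in 108 DoubleNegative wells, at least 88.0-fold and 83.9-fold higher against the same floor (adjusted p = 0.0128 and 0.00699). Kdr and Tek, another of the regulators called higher, are also among the 10 endothelial markers. The adhesion molecule Icam2 was at 908 to 1329 and 0 to 5.06 CPM (adjusted p = 0.000540), its 5 DoubleNegative counts lying in the 1 endothelial well of WT preparation 2.

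Gap junction genes were divided by type. Gja5 was at 1396 to 2163 CPM in Endothelial sums and at 324 CPM in the DoubleNegative sum of WT preparation 2 but at 0.151 CPM or less in the other 3 (adjusted p = 0.0165). Of its 321 DoubleNegative counts, 1 was left in the 107 wells outside the clusters with endothelial markers. Gja1, the connexin of smooth muscle and many other cells, was at 0.176 to 8.80 and 138 to 362 CPM (log2 difference -5.37 ± 0.85, adjusted p = 0.00321). Of the cadherins, 2 of 4 tested were lower in Endothelial and none higher. Cdh11, a mesenchymal cadherin, was at 0.176 to 1.65 and 7.08 to 148 CPM (adjusted p = 0.00379), and Cdh6 at 0 to 3.29 and 3.92 to 29.4 CPM (adjusted p = 0.0400).

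Of 12 catenins and linkers tested 2 were higher and 2 lower, 33.3% against the 19% of all genes. The lower ones were Ctnna3 (adjusted p = 0.0331), the alpha-catenin of heart and testis, and vinculin, Vcl, which was at 120.1 to 184 and 294 to 804 CPM (adjusted p = 0.00420). The desmosome gene Dsp (adjusted p = 0.0406) and Mcam (adjusted p = 0.00807) were also lower. Of 10 tight junction plaque genes tested 1 was higher and 1 lower, a share of 20%, near that of all genes.

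Between genotypes, 0 of 60 tested genes of this set passed edgeR's quasi-likelihood test in the Endothelial sums, with none at an unadjusted p under 0.05 and a median log2 difference of 0.01. DESeq2 called none of them either. The 5 with the smallest p were Gjc1 (log2 difference 0.75, p = 0.0765), Mpp5 (0.55, p = 0.116), Magi3 (-0.89, p = 0.144), Arhgap29 (-0.54, p = 0.146) and Pard6g (3.12, p = 0.160), each from the model across all genes and with an adjusted p of 1.00. Pard6g rested on the KO sum of preparation 1, at 7.85 CPM against 0.801 CPM or less in the other 3. Without the WT Endothelial preparation 1 sum 3 of the set passed, Dsp (-2.68), Gja1 (5.30) and Kdr (3.36), in a fit whose spread comes from the 2 KO sums alone and assumes that the lone WT sum varies like them.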

How the data were processed

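Single cells had been sorted into 384-well plates and made into Smart-seq2 libraries without molecular identifiers. The deposited table holds raw read counts per gene and well, which the authors made with STAR 2.7.7a on GRCm38 with spike-in and EYFP sequences, Picard 2.22.0 and HTSeq 0.9.1, per the labels and submitters' processing notes. The annotation release and strand setting were not given in the sources used here. Rows that name no gene held 48.1% of the counts, spike-ins included (1.25%), and were left out. Wells with 20000 gene counts and 500 genes were kept, and counts were summed over genotype, label and preparation. The 8 sums were tested with edgeR 4.0.16 (quasi-likelihood, TMM, filterByExpr, Benjamini-Hochberg over all genes, threshold 0.05) and with DESeq2 1.42.0 as an alternative, in R 4.3.3. The gate, DoubleNegative and interaction fits used all 8 sums with 1 mean per group, the genotype fit the 4 Endothelial sums, and the preparation fit added genotype as a term. SE and 95% intervals were derived from the fold change, the F statistic and its degrees of freedom. Fits were tested on simulated data. The study describes several mice per genotype in independent experiments, but no label ties a sum to particular mice, so p-values measure the spread between these sums.

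Wells were clustered with Seurat 5.3.0 (30 dimensions, resolution 0.5) and described by marker lists. No doublet caller was run on sorted wells. CPM per kilobase used GENCODE M21 exons (GRCm38), and gene coordinates are from it. Promoters of 6 of the 10 genes were found in the RefSeq table, and those of F11r and Ctnnd1, which touch annotated exons, were not printed. The members and lists were chosen with earlier results of these data known. All 10 members, Amotl2 and EYFP are named throughout. Of other junction genes, up to 8 per direction with the largest change were named among those called without overlap between gates, and between genotypes those called or, if none, the 5 with the smallest p. Most alike genes were the 5 with the highest mean rho for Cdh5, Pecam1 and Cldn5. The labels number the sorts, and the number marks the preparation, a batch shared by groups. WT and KO Endothelial sums of the same preparation deviated together with r = 0.142 over 12702 genes, and same-numbered gates with r = 0.02 to 0.0756. Preparation was no term of the main fits, and a fit with it as a replicate block was the alternative. Between gates the block was each combination of genotype and preparation.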

Additional observations from a re-analysis of the deposited data

Results flagged for a closer look

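In 20 groups of 4 sums (10 genes, 2 gates), 4 sums lay far from the other 3 by Dixon's criterion, which chance alone meets in about 1 in 20 groups. Cdh5 in KO Endothelial preparation 1, at 292 CPM, stood above the other Endothelial sums, at 197 to 213 CPM, and was on the plate that held KO cells only. The WT DoubleNegative sum of preparation 2 stood apart for Cdh5 (38.5 CPM), Pecam1 (503 CPM) and Cldn5 (492 CPM), and 1 well of its 12 gave 38 of 38, 480 of 497 and 486 of 486 of these counts.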

How the results depend on the processing

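Scaling by DESeq2's size factors or by library totals, no filter on low counts, a minimum of 100000 counts per well, thinning to 20000 counts, choosing wells by cluster, the replicate block described above, DESeq2 and leaving out each sum were tried, and leaving out the deepest well of each sum, and choosing wells by cluster for the 2 comparisons with DoubleNegative genotypes, were added after seeing the data. Between gates, 141 of 158 alternative values of the 10 genes kept direction and side of the threshold, 16 fell below it, 1 rose above it and 0 reversed. Leaving out single sums gave 5 to 8 of the 10 genes called and 23 to 34 of the wider set. Between genotypes in Endothelial sums none of 130 such values of the 10 genes passed, but the count over all genes rose from 0 to 1 with other size factors, with no factors, with the replicate block, by cluster and without the deepest wells, to 8 after thinning, 37 with DESeq2, 104 without the filter and 5 to 311 without single sums, where 1 genotype keeps a lone sum assumed to vary like the others (311 without WT and 5 without KO preparation 1, 221 without WT and 35 without KO preparation 2). The wider set then had 0 to 3 called. In DoubleNegative sums, and for the difference between gates, 0 to 3 of the 10 were called without single sums, and DESeq2 called 3 and 2. The causes were not tested. The mean share of wells with a count was 89.9% as measured and 83.3% after thinning. Apart from Tjp1 between gates and the count over all genes between genotypes, the replicate block changed no call of a member. The median log2 difference of all genes between gates was 0.15, and 0.264 with no factors, so the smaller values of Tjp1, Ctnnb1, Ctnnd1 and Jup are to be read relative to it.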
